A study of Mus musculus with 22 samples.

Results

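The spinal cord of wild type mice was profiled by bulk RNA sequencing, and the 6 libraries whose genotype label is WT, of 22 in the series, were described on their own. All 6 are labelled as whole spinal cord of mice aged 7 months on a mixed B6N;B6J background, and they carry no Yars allele other than wild type by their labels. The other 16 libraries come from mice with the E196K allele of Yars, the cytosolic tyrosyl-tRNA synthetase. Of these, the 6 heterozygous libraries (labelled E196K/+, same age, tissue and background) were used only to repeat the test of spread between libraries, and no genotype was compared with another. The libraries are called WT 1 to WT 6 in accession order, which is a name and not a pairing. The labels do not say whether each library came from a separate mouse and give no sex, so every p-value below measures the spread between these libraries, part of which may be technical.

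The spinal cord carries ascending and descending axons in a white matter rich in oligodendrocytes, which wrap axons in myelin, and holds motor neurons and excitatory and inhibitory interneurons in its grey matter. Astrocytes clear transmitter and supply metabolites, microglia are the resident macrophages, and ependymal cells line the central canal. Glycine and GABA are the main fast inhibitory transmitters of the cord, and Hox transcription factors set position along its length. In bulk tissue, fewer cells of a type and less RNA per cell cannot be told apart, so the levels below describe RNA and not cell numbers.

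Levels are given in TPM (transcript abundances), which divide the reads of a gene by its usable length and scale each library to the same total, so that genes can be compared with each other. Expected counts summed to between 29221035 (WT 6) and 42806010 (WT 2) per library, and between 21021 and 21811 genes were above 0. Across genes, log2(TPM + 1) of any pair of libraries correlated with r from 0.9697 to 0.9798. WT 6 stood apart in sex-linked transcripts. Its TPM of Xist, the RNA that silences 1 X chromosome, was 0.01 against 64.79 to 84.64 in WT 1 to WT 5, while the Y-linked Ddx3y and Eif2s3y reached 29.65 and 72.55 in WT 6, and Ddx3y was at 0 in the other 5. For the called genes named below that were highest in WT 6, the call or the CV without WT 6 is therefore given too. The filter on low counts before the test of spread (edgeR's filterByExpr) asks for a minimum in all 6 libraries and so left out Ddx3y and Xist. With a minimum of 10 counts in any library, an alternative added after the data were seen, both were tested, and 493 of 17632 genes (2.8%) were called, Xist, Ddx3y and Igkc (the kappa light chain constant region) among them.

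A small number of genes made up much of the RNA. Of 38924 gene IDs in the files, 24526 were above 0 in any library, 18711 were above 0 in all 6, and 15351 had a mean TPM of at least 1. The 10 highest genes held 19.10% of all TPM, the 50 highest 32.17% ± 1.993 (SD, n = 6) and the 1000 highest 63.62%. 348 genes sufficed for 50% of TPM, and 5503 for 90%. Only 79 genes reached a mean of 1000 TPM. Among genes with a mean of at least 1 TPM, 13695 protein coding genes held 89.54% of TPM, 277 genes annotated as lincRNA 3.461% and 255 processed pseudogenes 2.010%. Most of the lincRNA share was 1 entry, Gm42418, at 2.879% of TPM (0.6351% to 6.265% between libraries). RefSeq names it as a pseudogene related to ribosomal RNA, as set out below.

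The mitochondrial genome supplied the largest block. Its 13 protein coding genes, which encode subunits of respiratory complexes and of ATP synthase, held 17.98% ± 4.237 of TPM (SD, n = 6), from 12.21% in WT 4 to 24.63% in WT 5. All 13 were among the 19 highest genes. mt-Co1, a catalytic subunit of cytochrome oxidase, stood at 24645 ± 2271 TPM, mt-Co2 at 24354.5 ± 4501.5, mt-Co3 at 17230 ± 2340 and mt-Cytb at 11311 ± 1013. Their nuclear partners were far lower per length. Atp5b, the catalytic subunit of ATP synthase, had 2099 ± 115 TPM and Cox4i1, a cytochrome oxidase subunit, 1277 ± 43.5. mt-Co1 exceeded Cox4i1 by 19.35-fold ± 2.203 (SD over the 6 within-library ratios).

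The share of the mitochondrial genes depended on the scale. In expected counts, which do not correct for length, they made up 5.811% ± 0.876 of each library, from 4.444% in WT 4 to 7.036% in WT 5. Both scales therefore put the same libraries at the bottom and the top. The gap between the scales was widest for mt-Atp8, a 204-base gene of ATP synthase at position 7766 to 7969 of the mitochondrial chromosome (GENCODE M21, GRCm38). The files give mt-Atp8 an effective length, the number of positions a fragment could start from, of only 15.99 to 20.6 bases. It ranked first of all genes at 32959 TPM, with 19891, 45822, 22001, 12038, 70348 and 27653 TPM in WT 1 to WT 6. WT 4 was lowest and WT 5 highest, 5.844-fold apart. Its expected counts ran from 4722 in WT 4 to 22123 in WT 2, so the spread was not confined to TPM: the coefficient of variation (CV, SD over mean) was 65.36% in TPM and 61.4% in CPM (counts scaled by library total and not by length, with TMM factors wherever a CV is given). Without mt-Atp8 the other 12 genes held 14.68% ± 2.214 of TPM. Average fragment length, read back from the effective lengths, was shortest in WT 4 (251.3 bases) and longest in WT 5 (279.1 bases), the same libraries that were extreme for mt-Atp8. Its part in this result was not tested.

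Below the mitochondrial genes came ferritin, myelin and housekeeping transcripts. Fth1, the heavy chain of the iron store ferritin, had 13324 ± 1195 TPM, from 11753 in WT 5 to 14853 in WT 3. Mbp, a structural protein of myelin, had 12412 ± 884. Gapdh (glycolysis) and Apoe (the lipid carrier made by astrocytes) had 3897 ± 123 and 3165 ± 171. Each of these genes differed between its lowest and highest library by much less than mt-Atp8 did.

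Some of the highest names cannot be separated from copies of themselves. mt-Nd4l, a complex I subunit, and the predicted gene Gm10222 carried identical values in every library, 9738, 12622, 10545, 6528, 13443 and 10819 TPM in WT 1 to WT 6. In GENCODE M21 (GRCm38), mt-Nd4l lies on the plus strand at chrM:9877-10173 and Gm10222 on the minus strand at chr1:24612407-24612700. The sequence of mt-Nd4l is shown because all 294 bases of Gm10222 are contained in it, and only the 3 bases in capitals, its last 3, are not shared.
mt-Nd4l: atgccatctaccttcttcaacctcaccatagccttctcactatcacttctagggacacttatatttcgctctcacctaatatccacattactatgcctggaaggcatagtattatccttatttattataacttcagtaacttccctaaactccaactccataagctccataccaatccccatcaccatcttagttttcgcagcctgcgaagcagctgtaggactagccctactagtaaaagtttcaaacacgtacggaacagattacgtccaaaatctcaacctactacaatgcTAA
A read within the shared bases therefore fits both genes, and their summed value of 21231.5 ± 4861.5 TPM is the quantity the files support. The files give both genes a length of 297 bases, against 294 for Gm10222 in M21. Gm10222 and the 2 other predicted or unnamed genes described here were picked after their values were seen.

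The second highest gene, Gm42418, varied more than any mitochondrial gene. It is annotated as a lincRNA at chr17:39846958-39848788 in GENCODE M21, while RefSeq (GRCm38.p6) lists the name as a synonym of Rn18s-rs5, a pseudogene related to ribosomal RNA. Its TPM was 47299, 8716, 15605, 62654, 6351 and 32115 in WT 1 to WT 6, which is 4.73% of the library in WT 1, 6.265% in WT 4 and 0.6351% in WT 5. WT 4, WT 1 and WT 6 were high, and WT 5, WT 2 and WT 3 low, a 9.865-fold range. 4 other genes had the same order at the top, with WT 4 or WT 1 highest and WT 2 or WT 5 lowest. One was a gene ID with no entry in GENCODE M21, which ranked ninth at 11314 TPM. Another was Lars2, the mitochondrial leucyl-tRNA synthetase (chr9:123366927-123462666), at 961.2, 146.3, 226.7, 1280, 81.78 and 402.0 TPM. Cdr1 (chrX:61184005-61185558), whose locus is known for an abundant circular antisense RNA of neurons, had 109.0, 14.39, 21.23, 121.7, 15.12 and 39.71. Rn7sk, the small nuclear RNA that restrains transcription elongation, had 212.7, 67.67, 92.46, 208.1, 69.06 and 167.1. Whether the counting of these files used strand is not given in the sources used here, so Cdr1 and its antisense partner cannot be told apart. The lncRNA list had Malat1, a nuclear RNA, as its called member, at 1161, 664.8, 826.7, 1288, 1276 and 1040 TPM, and here WT 5 was among the high libraries. Malat1 was lowest in WT 2 and WT 3, the 2 libraries that share the title prefix 40411, and it was not called with title prefix as a covariate. Meg3, an imprinted lncRNA of neurons, stood at 1788 ± 86.6 TPM and Rian at 757.3 ± 58.5, and both stayed below the test's threshold. 

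**Figure D1:**
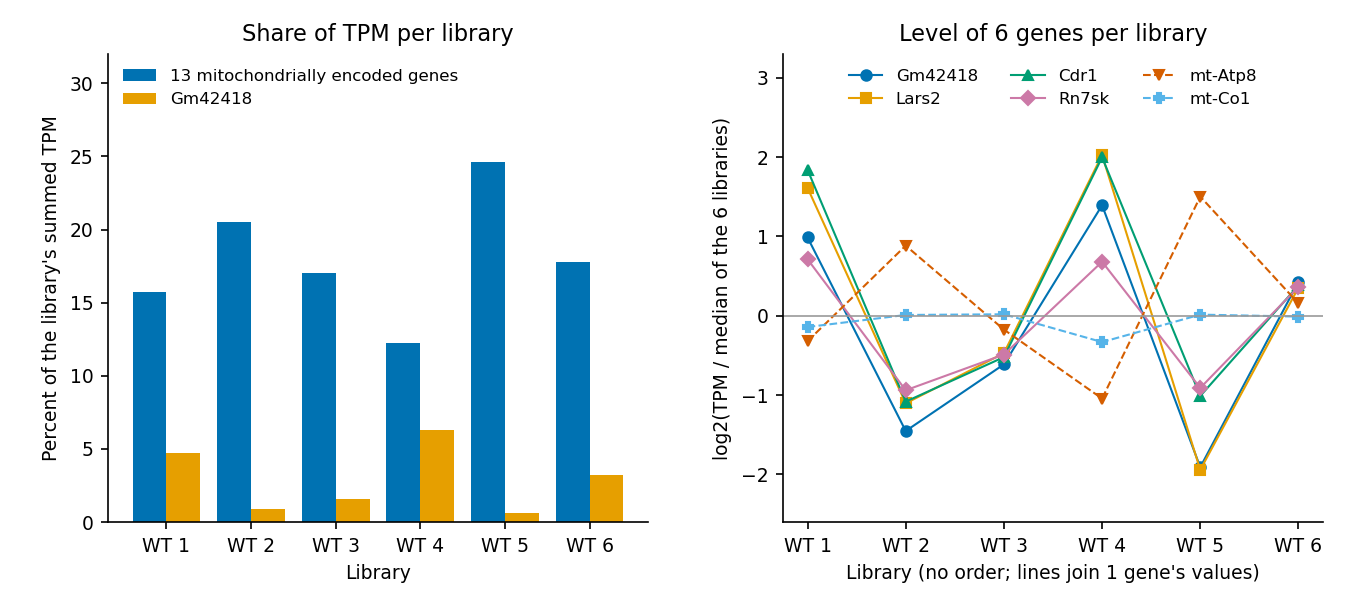
Left, bars give the percent of each library's summed TPM held by the 13 mitochondrially encoded genes and by Gm42418 in WT 1 to WT 6. Right, log2 of the TPM over the median of the 6 libraries for 6 genes, with lines joining the values of 1 gene. Lars2, Cdr1 and Rn7sk share with Gm42418 the high values in WT 1 and WT 4, mt-Atp8 is highest in WT 5 and lowest in WT 4, and mt-Co1 stays near its median.

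Cell types were described by 23 lists of marker genes, and the summed TPM of a list is the RNA of those genes only. The oligodendrocyte and myelin list of 23 genes led at 25513.5 ± 1495.7 TPM (SD, n = 6), from 23588.6 in WT 1 to 27597.7 in WT 3. Mbp alone contributed 11348, 12606, 13676, 13080, 11624 and 12140 TPM in WT 1 to WT 6. Mobp, another myelin basic protein, had 2125 ± 197, and Trf, the iron carrier transferrin made by oligodendrocytes, 1509 ± 90.8. The astrocyte list of 18 genes summed to 10032.5 ± 422.2 and the neuron list of 16 genes to 7636.4 ± 152.4. In each library the oligodendrocyte list exceeded the astrocyte list, by 2.543-fold ± 0.107, and the neuron list, by 3.342-fold ± 0.2059. Lists differ in the number and level of their genes, so these ratios rank lists and not cell numbers.

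Within the oligodendrocyte lineage, mature transcripts far exceeded those of precursors. The precursor list of 12 genes summed to 355.8 TPM ± 28.89, and the mature list was 71.96-fold ± 5.22 higher. In CPM, which does not correct for length, the gap was narrower, with sums of 27964.9 and 691.0. Olig1, a lineage factor also kept by mature cells, made up most of it at 181.9 ± 21.08. Pdgfra, the growth factor receptor that marks precursors, stood at 12.46 ± 1.087, Cspg4 (NG2) at 6.43 ± 0.7327 and Gpr17, a receptor of cells about to mature, at 12.20 ± 2.389. All 12 genes were above 1 TPM on average.

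Astrocyte transcripts were led by Sparcl1, a secreted synapse protein, at 1818 ± 77.7 TPM, Aldoc, a glycolytic aldolase, at 1365 ± 110, and Glul, which turns glutamate into glutamine, at 1198 ± 36.3. Gfap, the intermediate filament of astrocytes, had 946.9, 1164, 1264, 1313, 1143 and 885.5 TPM in WT 1 to WT 6. It was lowest in WT 6 and highest in WT 4, and its spread just missed the threshold of the test described below (edgeR's goodness-of-fit test, Benjamini-Hochberg adjusted p = 0.0501). The glutamate transporter Slc1a2 stood at 403.4 ± 21.62 and the water channel Aqp4 at 209.7 ± 17.5.

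Microglial genes were low. The 20 genes summed to 731.2 ± 27.55 TPM, and all 20 were above 1 TPM on average. Ctss, a lysosomal protease, led at 120.4 ± 4.662, and the complement subunit C1qa had 77.10 ± 4.557. The receptor P2ry12 and the surface protein Tmem119, used to tell microglia from blood macrophages, stood at 17.97 ± 1.786 and 14.50 ± 0.7759. The 8 markers of border macrophages summed to 8.045 ± 1.035, and of these only Stab1, a scavenger receptor, passed 1 TPM.

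Vessels and linings contributed less. The 18 endothelial genes summed to 591.1 ± 21.67 TPM, with Slc2a1, the glucose transporter of the blood-brain barrier, at 110.4 ± 5.591 and Ly6c1 at 93.31 ± 10.55. Pericyte and smooth muscle genes summed to 173.4 ± 14.32, led by Rgs5, a regulator of G protein signalling, at 58.71 ± 6.457 and Vtn (vitronectin) at 44.48 ± 4.786. The fibroblast and meningeal list summed to 83.11 ± 7.612, with Mgp, an inhibitor of calcification, at 24.23 ± 5.432. The ependymal list summed to 68.85 ± 4.08, with Foxj1, the regulator of motile cilia, at 20.35 ± 1.103.

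Neuronal transcripts had the lowest CV of the 23 cell type lists in TPM, 1.996%. The rank depended on the scale. With each library rescaled without mitochondrially encoded genes, the CV of the neuron list was 5.149%, above that of the inhibitory neuron (3.875%), excitatory neuron (4.373%) and astrocyte (4.574%) lists, among others. Snap25, a core protein of vesicle fusion, had 1957, 1972, 1900, 1741, 2033 and 1944 TPM in WT 1 to WT 6, Uchl1, a neuronal ubiquitin hydrolase, 904.4 ± 47.55 and Eno2, the neuronal enolase, 872.9 ± 46.14. None of the 16 was called as variable, as set out below.

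Markers of motor and other cholinergic neurons summed to 591.2 ± 30.17 TPM over 15 genes. Fgf1, a growth factor of motor neurons, and Ache, which breaks down acetylcholine, led at 176.0 ± 10.39 and 162.8 ± 11.05, and Gfra1, a GDNF co-receptor, followed at 55.68 ± 5.532. Chat, the enzyme that makes acetylcholine, stood lower at 19.32, 15.15, 15.73, 16.02, 13.42 and 16.07 TPM in WT 1 to WT 6. WT 1 was highest for Chat, Calca and Chodl. Calca, which encodes CGRP, had 52.65, 37.15, 31.35, 40.35, 50.11 and 30.04, and Chodl, a surface protein of fast motor neurons, 26.72, 14.53, 15.71, 18.08, 15.62 and 19.91. Mnx1, a transcription factor of motor neuron development, remained at 1.692 ± 0.29.

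The inhibitory list exceeded the excitatory list in summed TPM, though not gene by gene. The 10 inhibitory genes summed to 793.5 ± 32.66 TPM and the 12 excitatory genes to 398.7 ± 15.95, a ratio of 1.990 ± 0.05045 within libraries. In CPM the sums were 1770.9 and 528.3, a wider gap. Among inhibitory genes the neuronal glycine transporter Slc6a5 had 142.8 ± 10.75, the vesicular transporter Slc32a1, which loads both GABA and glycine, 128.6 ± 9.455, and Gad1, which makes GABA, 127.8 ± 6.627. Slc6a5 over Gad1 was 1.122 ± 0.1308, from 0.9098 to 1.305, so neither gene was the higher one in every library. The vesicular glutamate transporter of the cord, Slc17a6, stood at 99.38 ± 3.519, and its cortical counterpart Slc17a7 at 3.772 ± 0.6883. Gad2, another gene of the inhibitory list, was below Slc17a6 in each library, at a ratio of 0.4899 ± 0.02078 (0.4612 to 0.5184). The ratio of the sums thus depends on which genes each list holds. Tac2 (neurokinin B) and Cck (cholecystokinin) followed Slc17a6 among excitatory markers, at 90.48 ± 10.83 and 73.41 ± 11.14.

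Receptors, channels and peptides of these neurons had median members at 34.56, 82.11 and 13.44 TPM, and some of the higher ones are named here. Among 21 receptor genes, the glycine receptor subunit Glrb led at 202.8 ± 9.985 TPM, followed by Grin1, the obligatory NMDA receptor subunit, at 179.7 ± 16.7 and Glra1, the adult glycine receptor subunit, at 152.0 ± 12.98. Of the voltage-gated channels, the pacemaker channel Hcn2 had 182.3 ± 29.3. Sst (somatostatin) and Penk (enkephalin), peptides of dorsal horn neurons, led 21 neuropeptides at 349.0 ± 24.58 and 233.8 ± 18.6.

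Tissues next to the cord left few transcripts. Of 9 markers of sensory ganglion neurons, P2rx3 alone passed 1 TPM, the list summed to 2.688 ± 0.4287 (1.96 to 3.21), and Mrgprd was at 0 in all 6 libraries. Skeletal muscle genes summed to 8.253 ± 1.532, of which Casq1 held 5.192, and Myh4, a fast myosin, averaged 0.005 TPM. Fat cell genes summed to 3.017 ± 0.4544, with Lep at 0 throughout, and cartilage and bone genes to 14.20 ± 1.194, of which the matrix protein Acan held 8.722. Of 11 Schwann cell genes, Pmp22 held 112.2 TPM of the summed 137.3. Of 12 genes that mark brain regions, Otx2, Six3 and Gabra6 were at 0 in all libraries, and the list summed to 6.570 ± 0.826. The lymphocyte list stayed between 1.22 and 4.06 in WT 2 to WT 6 and reached 19.21 in WT 1, where the immunoglobulin light chain Igkc alone gave 16.98.

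**Figure D2:**
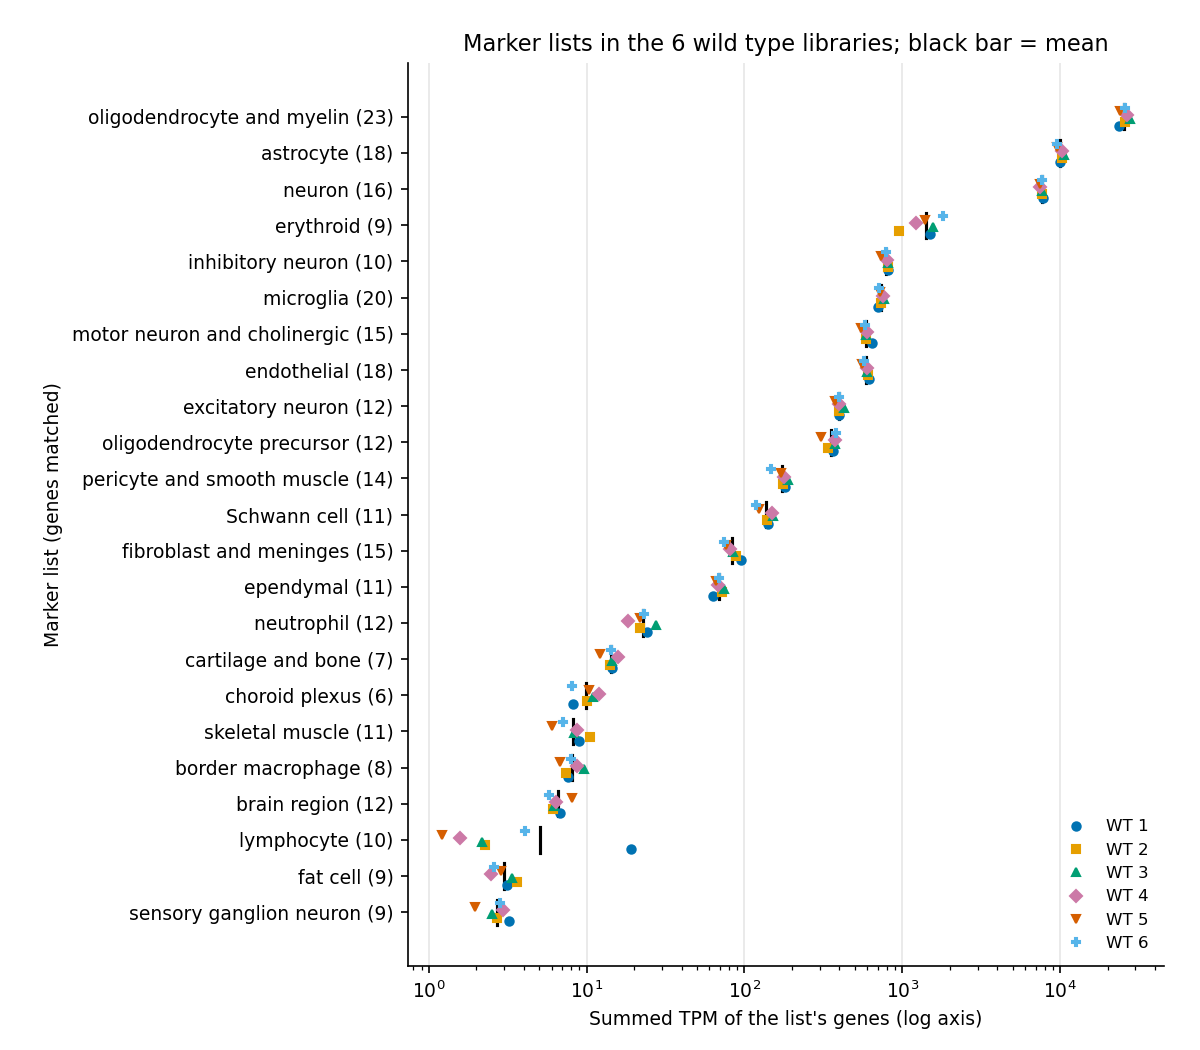
Summed TPM of each of 23 cell type lists (log axis) in the 6 wild type libraries, with a black bar at the mean and the number of genes matched in parentheses. Oligodendrocyte, astrocyte and neuron lists lead at 25513.5, 10032.5 and 7636.4 TPM, the lists of ganglion, muscle and fat stay at or below 10.45 TPM, and the erythroid and lymphocyte lists show the widest gaps between libraries.

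Pathways of energy supply and protein synthesis exceeded each cell type list except the oligodendrocyte list in summed TPM, but not in CPM. There the respiratory chain, glycolysis and ribosomal protein lists summed to 5250.1, 10462.0 and 4857.3, below the astrocyte list at 15880.0, and the neuron list stood at 8189.4. The 20 nuclear genes of the respiratory chain summed to 12750.4 ± 506.8 TPM and the 20 genes of glycolysis and lactate handling to 12721.3 ± 367.4, with CVs of 3.975% and 2.888%. Gapdh, Aldoc and Aldoa led glycolysis at 3897, 1365 and 1303 TPM. Lactate dehydrogenase was mostly the Ldhb form, which favours pyruvate, at 844.3 ± 45.65 against 83.30 ± 11.98 for Ldha, a ratio of 0.09908 ± 0.01642. Cytosolic ribosomal protein genes, 35 in the list, summed to 17401.9 ± 731.8, led by Rplp1 at 1833 ± 71.2, Rps29 at 1658 ± 81.7 and Rps15 at 1180 ± 58.9. Rps27 was listed at 0 in all libraries, and since ribosomal protein genes have many near-identical pseudogenes the level of any single one is uncertain.

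Genes of cholesterol synthesis, a pathway that feeds myelin, summed to 1401.9 ± 95.02 TPM over 22 genes. Hmgcs1, its entry enzyme, led at 217.9 ± 22.77, then Msmo1 at 111.5 ± 8.186. The axon cytoskeleton list summed to 5989.3 ± 331.2, with the neurofilament subunits Nefm at 1081 ± 67.5 and Nefl at 992.6 ± 70.04 and the kinesin motor Kif5a at 558.6 ± 35.4. Interferon targets summed to 156.0 ± 4.077 over 16 genes and antigen presentation genes to 424.0 ± 38.26, of which B2m, the light chain of MHC class I, held 260.0 ± 21.67. Of the clock genes, the D-box factor Tef led at 131.5 ± 14.28 and Clock stood at 20.01 ± 1.074.

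Hox genes peaked at the middle of the series. In summed TPM, paralog group 8 was highest at 244.9 ± 23.5 (SD, n = 6), with group 9 at 131.2 ± 10.28 and group 7 at 100.8 ± 6.004 on either side. Most of group 8 was 1 gene, Hoxb8, while Hoxc8 and Hoxd8 stood at 29.93 and 38.01. The groups hold 2 to 4 genes each, so their sums do not compare equal numbers of genes. Groups 1 and 13, expressed at the 2 ends of the body axis, stood at 2.233 ± 0.4425 and 2.742 ± 0.7836. The single highest member was Hoxb8 (chr11:96281905-96285315) at 177.0 ± 20.3 TPM, from 153.4 in WT 2 to 206.1 in WT 4. Hoxa7, Hoxa9 and Hoxb6 followed at 63.21 ± 3.978, 57.20 ± 5.463 and 48.56 ± 4.37. Hoxb6 and Hoxb9, at 48.43 ± 3.296, did not differ beyond their spread. In group 10, typical of the lumbar cord, WT 1 stood apart, with 110.4 TPM against 63.71 to 76.37 in the other 5. Hoxa10 had 38.34, 26.33, 22.10, 22.09, 23.61 and 25.73 TPM in WT 1 to WT 6, Hoxc10 53.86, 35.56, 36.09, 34.51, 32.48 and 37.99, and Hoxd10 18.19, 13.21, 10.66, 7.11, 12.77 and 12.65. WT 1 was highest for all 3. Group 11 had another order, with WT 2 highest at 28.86 and WT 4 lowest at 15.81. The length of cord in each library is not given in the labels.

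**Figure D3:**
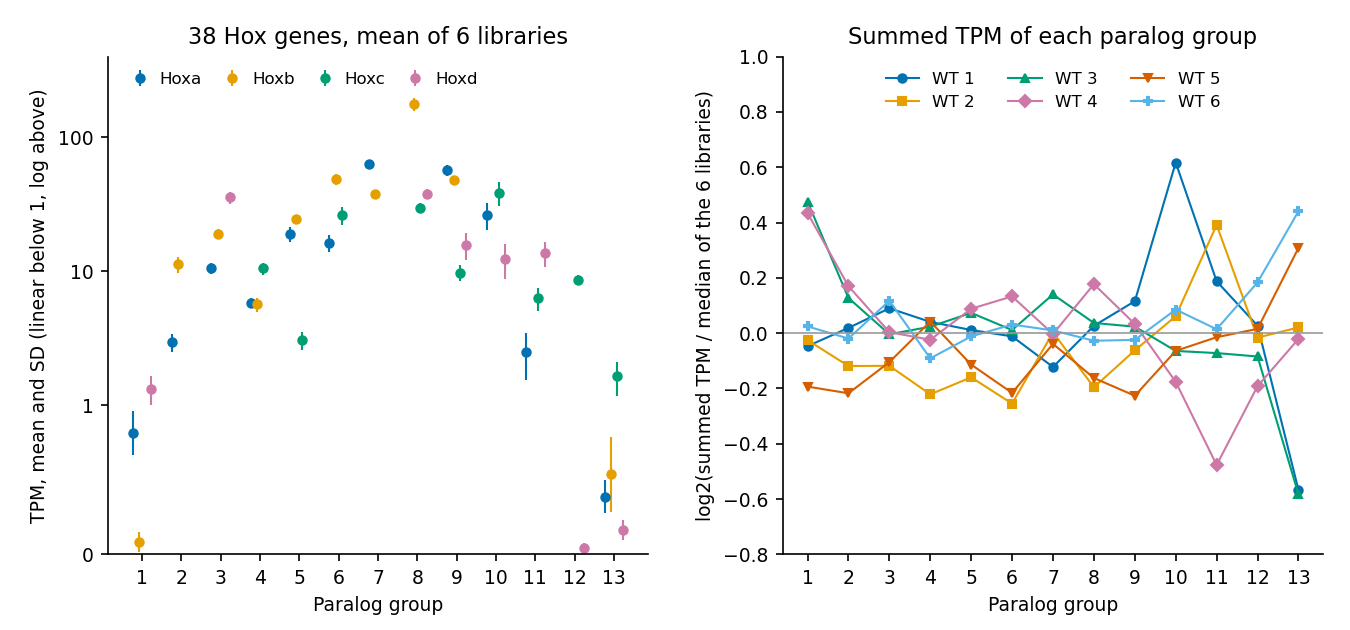
Left, mean TPM and SD over the 6 libraries of 38 Hox genes by paralog group and cluster (linear below 1, log above). Right, log2 of each paralog group's summed TPM over the median of the 6 libraries. Levels peak at group 8, mostly through Hoxb8, and WT 1 lies above the other libraries at group 10, with 110.4 TPM against at most 76.37.

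Which genes varied more between libraries than genes of their level usually do was tested with edgeR's goodness-of-fit test at the trended dispersion, with Benjamini-Hochberg adjustment over all genes tested. The usual biological CV was 8.15%. Of 15793 genes tested, 392 were called, which is 2.48%. Their median CV of TPM was 23.52%, against 9.013% for the 15401 not called and 9.16% over all tested. The 6 heterozygous libraries, tested on their own, gave 423 calls of 15759, or 2.68%. Among 15577 genes tested in both groups, 382 were called in the wild type and 414 in the heterozygous libraries, and 180 were called in both, 47.1% of the first and 43.5% of the second. On simulated libraries with 15793 genes, the test found 34% of 100 genes raised 1.5-fold in 1 library and 89% of 100 raised 2-fold, with 4 false calls. Every simulated gene had the trended dispersion that the test assumes, and only genes with a mean of at least 1 CPM were raised. The false calls of the simulation therefore do not measure the error among the 392. Of the called genes, 129 were highest in WT 5, 90 in WT 6 and 76 in WT 4, and 126 were lowest in WT 4. Pseudogenes were called more often than the 2.48% over all genes, at 30 of 249.

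Called genes were spread unevenly over the lists. The lists were chosen with earlier results of these data known, so their counts describe these libraries and are not an independent test. Against the background of 2.48%, 10 of 15 glucocorticoid targets, 8 of 13 mitochondrially encoded genes, 4 of 5 erythroid genes tested, 4 of 14 heat shock genes and 6 of 33 Hox genes tested were called. The members' median CVs were 22.7%, 16.6%, 27.69%, 10.65% and 12.22%, beside 9.16% over all genes tested. No gene was called among the lists of microglia (20), neurons (16), inhibitory neurons (10), excitatory neurons (12), the nuclear respiratory chain (20), glycolysis (20), the axon cytoskeleton (15) and transmitter receptors (21). At an unadjusted p below 0.05, against 7.294% of all genes tested, these 8 lists held 2, 1, 1, 2, 0, 1, 2 and 1 genes in that order, and DESeq2's dispersion outliers included none of their genes. The remaining lists held 2 calls at most. Those 2 were Opalin, a myelin paranode protein, and Ugt8a, which makes the myelin lipid galactosylceramide, among oligodendrocyte genes, Calca and Chodl among motor neuron genes, and Jund and Fosl2, both AP-1 subunits, among immediate early genes. Several of these calls rested on 1 library. Ugt8a was not called without WT 2, WT 3 or WT 5, Chodl without WT 1, Fosl2 without WT 1, WT 2 or WT 6, and Jund without WT 5. With title prefix as a covariate, Calca and Jund were the ones of these 6 still called. Opalin had 30.45, 49.02, 49.46, 35.65, 27.24 and 27.72 TPM in WT 1 to WT 6 (adjusted p = 3.92e-07), with WT 2 and WT 3, the libraries of prefix 40411, well above the rest. Prefix and any other difference of these 2 libraries cannot be told apart.

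**Figure D4:**
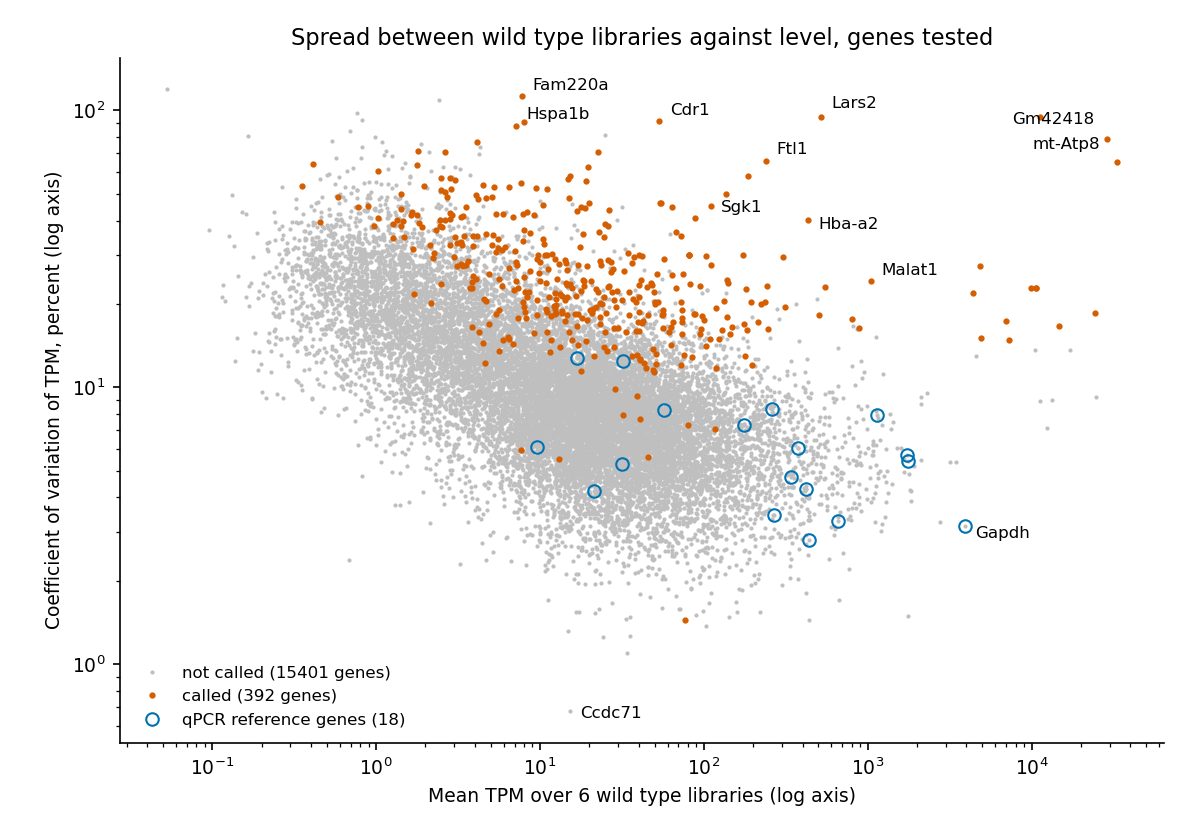
Coefficient of variation of TPM over the 6 wild type libraries against mean TPM (both log axes) for the 15793 genes tested. Orange points are the 392 genes called, grey points the 15401 not called, and blue circles the 18 qPCR reference genes, none of which was called. Gm42418, mt-Atp8, Lars2, Cdr1 and Ftl1 stand at the top, and Ccdc71 at the bottom with 0.6751%.

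Glucocorticoids released by the adrenal gland under stress and through the day act on a receptor that binds DNA and switches on genes such as Sgk1, Tsc22d3 and Zbtb16. Sgk1, a kinase that regulates ion channels (chr10:21882184-21999903), had 91.89, 129.6, 136.9, 60.78, 56.91 and 185.8 TPM in WT 1 to WT 6. WT 6 was highest, WT 4 and WT 5 were lowest, and the spread passed the test by a wide margin (adjusted p = 9.84e-36, and 1.91e-81 in the heterozygous libraries). Tsc22d3, the glucocorticoid-induced leucine zipper protein, had 162.3, 189.3, 170.0, 152.2, 152.1 and 260.0 (adjusted p = 4.61e-07). Zbtb16, a transcription factor, had 14.65, 12.65, 7.70, 12.64, 13.91 and 29.07 (adjusted p = 3.96e-30). WT 6 was again highest for both. Cdkn1a (p21) had 21.37, 27.66, 26.84, 21.73, 24.40 and 40.51, Pdk4, which shuts pyruvate out of mitochondria, 7.63, 12.17, 11.01, 9.13, 9.47 and 17.10, and Plin4, a lipid droplet protein, 9.01, 10.21, 4.98, 5.84, 4.54 and 12.90. These too were highest in WT 6. Hif3a, a hypoxia-inducible factor subunit, had WT 2 highest at 9.02 and WT 6 next at 7.36.

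The list as a whole rested partly on 1 library. Of 10 genes called with all 6 libraries, 5 were called without WT 6 (Ddit4, Hif3a, Plin4, Sgk1 and Zbtb16). With title prefix as a covariate 8 were called, and Ddit4 and Nfkbia were not. In the heterozygous libraries 10 were called, and 8 were shared with the wild type calls: Cdkn1a, Ddit4, Hif3a, Map3k6, Nfkbia, Plin4, Sgk1 and Zbtb16. These calls too rested partly on 1 library. Without the first heterozygous library in accession order, 4 were called (Ddit4, Nfkbia, Plin4 and Sgk1), and without any other, 10. Fkbp5, a chaperone of the receptor and a classic target, had 16.57, 13.27, 16.21, 16.28, 13.44 and 20.21 TPM in WT 1 to WT 6. It was not called with all 6 libraries (goodness-of-fit test, adjusted p = 0.0652), but it was called without WT 4 and without WT 5. The metallothioneins Mt1 (1241 ± 139 TPM) and Mt2 (659.6 ± 91.41) were not called in the wild type libraries, but both were called in the heterozygous libraries. WT 6 is also the library with Y-linked transcripts and no Xist, so within these 6 libraries a difference of that kind and any other feature of WT 6 cannot be told apart.

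Constitutive cytosolic chaperones were abundant, while the stress-inducible HSP70 genes were low and were called. Hspa8, the constitutive HSP70, stood at 1675 ± 92.6 TPM, Hsp90ab1 at 1159 ± 56.7 and Hsp90aa1 at 860.1 ± 140.2, none called. Hsp90aa1 was the least even of them, with 1133.4 in WT 5 against at most 874.5 in the others. Hspa1a and Hspa1b, the stress-inducible HSP70 genes, had 6.95, 8.43, 7.84, 9.43, 10.39 and 19.98 TPM and 3.64, 3.80, 3.29, 4.29, 8.24 and 19.31 TPM in WT 1 to WT 6 (adjusted p = 7.78e-13 and 4.86e-49). WT 6 was highest for both and WT 5 next. Their transcripts share 52.7% and 55.8% of their 75-base windows, so reads can pass between them, but their sum had the same order at the top: 10.59, 12.23, 11.13, 13.72, 18.63 and 39.29. Without WT 6, Hspa1a was no longer called and the CV of Hspa1b fell from 88.17% to 43.8%. Hspb1 (HSP27) had 49.99, 37.92, 45.06, 49.78, 29.34 and 59.05 (adjusted p = 0.00115), here with WT 6 highest and WT 5 lowest, and it was called without WT 6 but not without WT 5. Chordc1, an HSP90 co-chaperone, had 54.70, 46.05, 51.58, 47.84, 69.61 and 69.16 (adjusted p = 0.000144), with WT 5 and WT 6 high. In the heterozygous libraries Hspa1a, Hspa1b, Chordc1 and Dnajb1, the HSP40 that starts the HSP70 cycle, were called.

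Heat shock factors bind inverted repeats of nGAAn, and the glucocorticoid receptor binds a palindrome with a spacer of 3 bases. The 250 bases before the start of genes were searched on both strands in RefSeq windows (GRCm38.p6) for GAANNTTC and for the glucocorticoid response element, taken as GNACA and TGTNC with any 3 bases between them. Each is its own reverse complement. The first was in 6.69% of 32851 windows and 7.73% of 27025 genes, and in 6 of 11 heat shock genes with a window (Dnaja1, Hspa1a, Hspa1b, Hspb1, Hspd1 and Hspe1). The second was in 0.387% of windows and 0.44% of genes, and in 3 of 14 glucocorticoid genes with a window (Map3k6, Mt1 and Sgk1). The windows of the called genes that hold a match, other than Map3k6, are shown with the match in capitals, to let the near identity of the Hspa1a and Hspa1b windows be seen. They lie at chr17:34972157-34972406 (minus strand), chr17:34959239-34959488 (minus strand), chr5:135887669-135887918 (plus strand) and chr10:21993640-21993889 (plus strand, 1 of the 6 windows of Sgk1).
Hspa1a: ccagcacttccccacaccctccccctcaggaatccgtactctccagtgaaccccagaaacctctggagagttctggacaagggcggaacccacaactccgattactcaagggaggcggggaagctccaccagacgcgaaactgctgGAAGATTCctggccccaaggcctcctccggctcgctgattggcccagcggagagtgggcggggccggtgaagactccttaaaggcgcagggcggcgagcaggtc
Hspa1b: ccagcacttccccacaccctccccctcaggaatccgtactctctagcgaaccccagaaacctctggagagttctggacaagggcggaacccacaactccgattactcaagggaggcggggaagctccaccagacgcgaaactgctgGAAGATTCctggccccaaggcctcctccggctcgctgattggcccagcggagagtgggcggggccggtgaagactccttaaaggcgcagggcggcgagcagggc
Hspb1: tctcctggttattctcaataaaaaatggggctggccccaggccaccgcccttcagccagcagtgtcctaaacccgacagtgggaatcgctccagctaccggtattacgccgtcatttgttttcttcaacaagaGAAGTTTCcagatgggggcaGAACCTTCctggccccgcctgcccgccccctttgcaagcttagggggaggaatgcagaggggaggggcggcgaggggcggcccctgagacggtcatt
Sgk1: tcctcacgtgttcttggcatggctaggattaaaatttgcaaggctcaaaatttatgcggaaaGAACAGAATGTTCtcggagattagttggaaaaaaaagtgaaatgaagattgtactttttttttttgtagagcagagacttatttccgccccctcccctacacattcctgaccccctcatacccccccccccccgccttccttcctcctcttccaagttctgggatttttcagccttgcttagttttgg
The Hspa1a and Hspa1b windows differ at 3 of 250 bases and hold the match 104 bases before the start, Hspb1 holds matches 117 and 97 bases before it, and Sgk1 holds its match 188 bases before it. A match describes letters in these windows and not binding. Among the heat shock genes with a match, Hspd1 and Hspe1, the mitochondrial chaperonins, were steady, at 189.6 ± 9.145 and 179.4 ± 11.53 TPM.

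**Figure D5:**
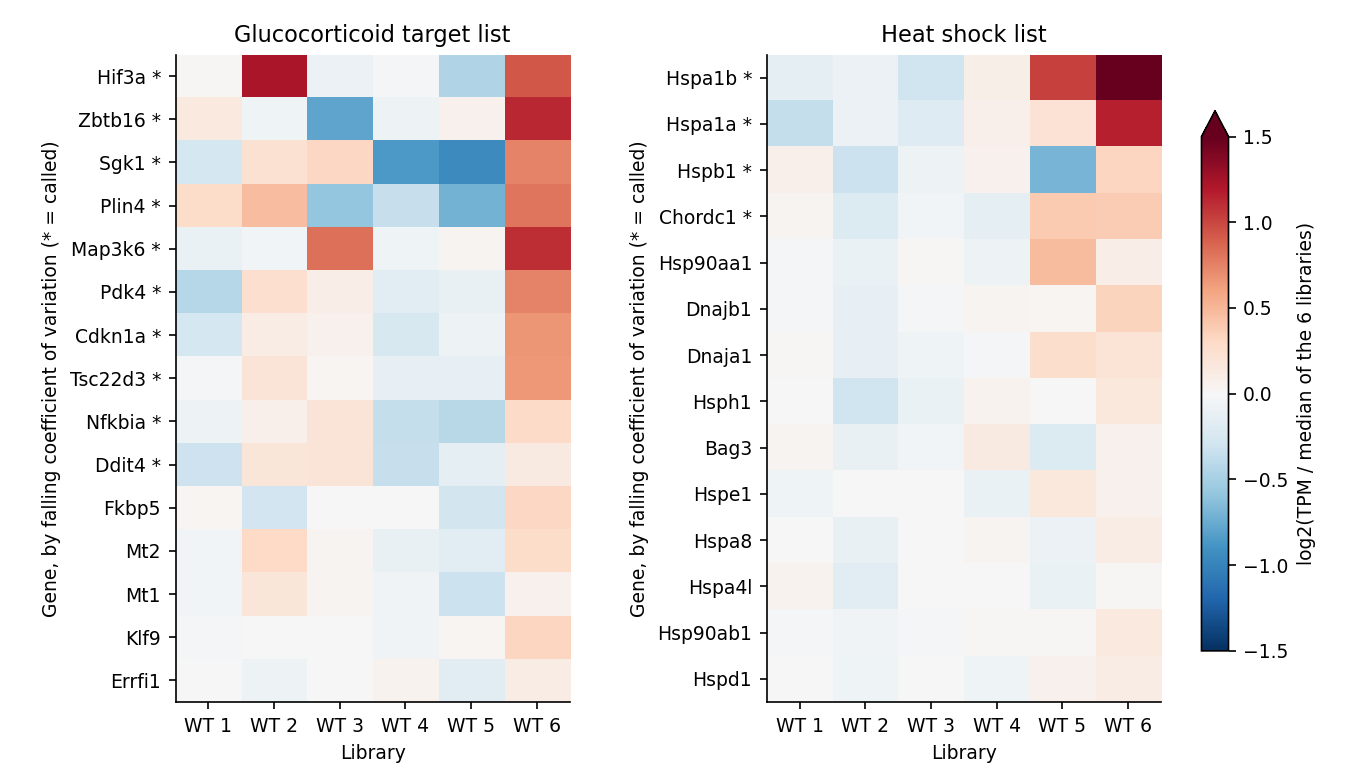
Log2 of TPM over the median of the 6 libraries for the 15 glucocorticoid targets (left) and the 14 heat shock genes (right), with genes in order of falling CV and called genes starred. The colour scale ends at 1.5, which Hspa1b in WT 6 exceeds. WT 6 is the highest library for most called genes of both lists, and Hif3a is highest in WT 2.

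Erythroid transcripts varied in every setting that left out 1 library, with 4 genes called each time, but none was called with only the 3 libraries of prefix 40412. Hbb-bs, an adult beta globin, had 430.9, 407.1, 644.1, 523.3, 557.7 and 739.6 TPM in WT 1 to WT 6 (adjusted p = 2.4e-07). Hba-a1 had 213.2, 222.8, 364.6, 299.8, 282.5 and 450.5, and Hba-a2 740.4, 243.2, 420.9, 296.8, 437.9 and 453.8. The 2 alpha globins disagree about WT 1, which was the lowest library for the first and the highest for the second. Their transcripts share 62.2% and 81.0% of their 75-base windows, and the sum of 953.6, 466.0, 785.5, 596.6, 720.3 and 904.3, a CV of 25.04%, had WT 1 and WT 6 at the top and WT 2 at the bottom. Alas2, the first enzyme of haem synthesis in red cells and a gene with no such copy, ran from 5.03 in WT 2 to 9.41 in WT 6 and was not called. Epb42 and Rhag, membrane proteins of red cells and their precursors, averaged 0.04833 and 0.005 TPM. The same 4 globins were called in the heterozygous libraries.

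Mitochondrially encoded genes were called in 8 of 13 cases, and in 3 (mt-Atp8, mt-Nd3 and mt-Nd6) without WT 4. WT 4 was the lowest library for all 13. WT 5 was the highest for all except mt-Co1, which had 23416, 26016, 26171, 20526, 26092 and 25651 TPM and was not called. Of the Hox calls, Hoxd9, Hoxa10, Hoxc10, Hoxd10, Hoxa11 and Hoxd11, only Hoxd10 and Hoxd11 were called without WT 1, and the same 2 with title prefix as a covariate, where WT 1 is the single library of its prefix. In the heterozygous libraries Hoxc8 and Hoxd10 were called, so 1 of the 6 was called in both groups. This overlap depended on the filter. With no filter on low counts, or with at least 10 counts in any library, 8 Hox genes were called in the heterozygous libraries. Of these, 3 (Hoxa11, Hoxd10 and Hoxd11) were among the 6.

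The genes with the largest CVs among those called and at or above 1 TPM fell into a few kinds. Fam220a (chr5:143548708-143564531) was the widest at 112.4%, with 25.51, 3.51, 3.23, 4.30, 4.64 and 5.39 TPM in WT 1 to WT 6, and its CV was 20.67% without WT 1 and 172.0% in CPM over all 6. The length that the files give Fam220a, an average over the isoforms that reads were assigned to, was 1916.9 bases in WT 1 and at most 919.3 in the others. The ferritin light chain Ftl1 had 6.04, 229.4, 249.2, 503.7, 221.5 and 230.0 TPM and its copy Ftl1-ps1 339.0, 198.6, 193.9, 0.97, 183.4 and 200.6. WT 1 was near 0 for Ftl1 and WT 4 near 0 for Ftl1-ps1. Their transcripts share 66.0% and 68.3% of their 75-base windows, and their sum of 345.0, 428.0, 443.1, 504.7, 404.8 and 430.6 had a CV of 12.20%, against 65.87% and 57.92% for the 2 apart. The CV of Ftl1 was 42.44% without WT 1, and that of Ftl1-ps1 29.18% without WT 4. Other copies of protein coding genes among the 25 widest were Dynlt1-ps1, Llph-ps2 and Ap3s1-ps1, and the CV of Llph-ps2 was 70.78% with WT 5 and 29.91% without it.

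Histone genes formed another kind: Hist2h4, Hist2h2aa1 and Hist1h1e had CVs of 60.39%, 56.58% and 51.84%, each lowest in WT 4. Hist2h4 and Hist1h1e were highest in WT 6, and without it their CVs were 40.19% and 37.3%. Most mRNAs of replication-dependent histones end without a poly(A) tail. Cers1, the ceramide synthase of neurons that makes lipids with stearic acid, had 16.41, 38.56, 23.47, 5.90, 7.77 and 25.25 TPM (CV 62.37%, adjusted p = 2.98e-64), with WT 2 high and WT 4 and WT 5 low. Stra6, the retinol transporter, and Igfbp6, a binding protein of insulin-like growth factor 2, were highest in WT 1, at 3.91 and 5.05 TPM, and without WT 1 their CVs went from 53.26% and 50.77% to 28.94% and 30.61%. Btg3, Srd5a2, Fmo2 and Depp1 were highest in WT 6, at 13.12, 3.97, 8.94 and 4.79 TPM, and without WT 6 their CVs went from 52.94%, 63.4%, 53.74% and 51.57% to 25.5%, 31.28%, 32.82% and 35.19%. Xlr3b and Amd2 were highest in WT 5, at 15.45 and 2.75 TPM, with CVs of 54.57% and 49.81%, and of 32.89% and 25.6% without WT 5. Capn11 and Tgtp2 were highest in WT 3, at 3.98 and 4.41 TPM.

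The steadiest genes at or above 10 TPM varied by about 1% of their mean. Ccdc71 led with a CV of 0.6751% (15.05 to 15.31 TPM), followed by Ttc19, a factor of respiratory complex III, at 1.10% (33.42 to 34.53, and 0.5276% without WT 6), Eef2k, the kinase of elongation factor 2, at 1.248% and Rasgef1a at 1.261%. The other 6 were Gpr85, Dctn5, Prkar1a, Elavl2, Adam9 and Slc25a17, at 1.322% to 1.475%. The median CV of the 9724 genes at this level was 7.436%, and 95% of them lay under 17.11%. The low spread of these 10 genes, picked on their TPM, was larger in CPM for all 10. Slc25a17 had 3.13%, Adam9 3.23% and Ccdc71 3.63% there, and the rest lay higher. Elavl2, an RNA-binding protein of neurons, had a CV of 1.44% in TPM and 15.1% in CPM, and was called as variable (adjusted p = 0.0464).

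Of 18 genes often used to normalise qPCR, 0 were called by edgeR's goodness-of-fit test, against 2.48% of all genes tested. None had an unadjusted p below 0.05, against 7.294% of all genes tested, and none was a dispersion outlier in DESeq2. At these shares few calls would fall among 18 genes, so the counts do not set them apart. Their median CV of TPM was 5.564%, against 7.436% for all genes at or above 10 TPM. Actb, Tfrc, B2m, Ppia and Gusb lay above that 7.436%, and the rest below it. Ywhaz had the lowest CV of TPM, 2.805%, and Gapdh lay at 3.164%, Rplp0 at 3.459%, Tbp at 4.217%, Pgk1 at 4.292% and Sdha at 4.759%. Ipo8, Eef1a1, Rpl13a and Rps18 lay at 5.269%, 5.427%, 5.701% and 6.021%. Hprt, Actb, Tfrc and B2m lay at 7.277%, 7.94%, 8.253% and 8.332%. Ppia and Gusb were the widest at 12.47% and 12.75%. 1 library carried much of the spread of some: without WT 4 the CV of Hprt was 2.217%, of Tfrc 4.559% and of Ppia 6.945%, without WT 5 that of Sdha was 2.379%, of Actb 4.792% and of Pgk1 2.751%, without WT 1 that of Ipo8 was 3.103% and without WT 2 that of Gapdh was 2.079%. In CPM the order differed, with Sdha at 1.64%, Rpl13a at 3.48%, Actb at 3.94%, Ywhaz at 5.53%, Gusb at 8.05% and Tbp at 9.02%. Ppia (cyclophilin A) stood at 32.21 TPM, and as a gene with many processed copies its level is uncertain.

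Yars itself (chr4:129189760-129219607), the gene altered in the other mice of the series, had 101.6, 97.50, 96.85, 98.03, 93.57 and 99.71 TPM in WT 1 to WT 6. Its mean of 97.88 ± 2.731 ranked 1534, and its CV of 2.79% was close to that of Ywhaz in TPM. It was called in neither the wild type nor the heterozygous libraries.

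Whether whole groups of genes moved together between libraries was asked for 6 pairs of lists, from each list's mean log2(TPM + 1) over members with a mean of at least 1 TPM. Exact permutation tests over all 720 pairings, two-sided, allow no p below 0.00278 with 6 libraries. Fibroblast and meningeal genes tracked pericyte and smooth muscle genes most closely, with r = 0.877 (exact permutation p = 0.0375, adjusted 0.225 over the 6 pairs) and rho = 0.8286 (exact permutation p = 0.0583, adjusted 0.308). Without WT 5 and WT 6, the 2 libraries farthest from the median of the first list, r was 0.2144. It was 0.8407 without WT 5 alone and 0.7845 without WT 6 alone. Leaving out the extremes of a list also narrows its range, so a lower r cannot show what the relation rested on. Erythroid and neutrophil genes gave r = 0.3729 (exact permutation p = 0.45, adjusted 0.9) and rho = 0.7714 (exact permutation p = 0.103, adjusted 0.308), and r = 0.8108 without WT 2 and WT 6. Oligodendrocyte and neuron genes gave r = 0.6119 (exact permutation p = 0.197, adjusted 0.592) and rho = 0.6 (exact permutation p = 0.242, adjusted 0.483), and r = -0.4284 without WT 3 and WT 5.

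The other 3 pairs had smaller coefficients. The 2 arms of the clock, which peak at opposite times of day, gave r = -0.1733 (exact permutation p = 0.768, adjusted 0.922) and rho = 0.08571 (exact permutation p = 0.919, adjusted 1.0), and r = 0.6613 without WT 1 and WT 6. Immediate early and heat shock genes gave r = 0.2636 (exact permutation p = 0.685, adjusted 0.922) and rho = -0.08571 (exact permutation p = 0.919, adjusted 1.0), and r = 0.5687 without WT 1 and WT 5. Mitochondrially encoded and cytosolic ribosomal protein genes gave r = -0.02583 (exact permutation p = 0.957, adjusted 0.957) and rho = -0.02857 (exact permutation p = 1.0, adjusted 1.0), and r = 0.6116 without WT 4 and WT 5. None of the 6 passed after adjustment. The libraries carry 3 title prefixes, 1 library with 39992, 2 with 40411 and 3 with 40412, and what a prefix stands for is not given in the labels. No prefix holds the 6 libraries a correlation needs, so none was recomputed within a prefix.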

How the data were processed

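Polyadenylated RNA of whole spinal cord was captured and sequenced from both ends after stranded library preparation, per the labels' protocols. The authors used Bowtie2 2.2.0 and RSEM 1.2.12, per the submitters' processing notes. For build, annotation and strand setting, no value is given in the sources used here. Each deposited table holds expected counts (estimated counts, which need not be whole), TPM, FPKM and lengths per gene, per the file headers. Over all 38924 gene IDs, those at 0 included, between 14.41% and 15.85% of a library's expected counts were not whole.

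Gene symbols and positions came from GENCODE M21 (GRCm38), matched by Ensembl ID for 37607 of 38924 IDs. Deposited TPM values were averaged, ranked and given a SD and CV over 6 libraries. The deposited expected counts were rounded, filtered with filterByExpr and scaled by TMM, and each gene's deviance from an intercept-only fit at the trended dispersion was tested with edgeR's goodness-of-fit test (edgeR 4.0.16 in R 4.3.3), with Benjamini-Hochberg adjustment and calls below 0.05. The scripts were tested on simulated data. Alternatives were DESeq2 1.42.0, FPKM as deposited by the authors in place of TPM, other thresholds and scalings, and leaving out each library. The other analyses used Python 3.11.15, pandas 2.3.3, SciPy 1.17.1 and matplotlib 3.10.9.

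The members and the 42 gene lists were chosen with earlier results of these data known. Of 616 genes listed, 6 had no match. Named were the 20 highest genes, the 3 highest of each list, the 25 most and 10 least variable, the qPCR reference genes and Yars, except some genes that are not reported here. Predicted genes and further list members were named after their values were seen. Counts of every pair of libraries differed by more than sampling noise (chi-square per degree of freedom 7.901 to 120.8), so none was counted as a copy of another. This comparison cannot tell whether 2 libraries came from the same mouse. The smallest library held 29221035 expected counts, so that 3 counts were 0.1027 CPM. Samples of the other genotypes, except for the heterozygous test, were not used here.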

Additional observations from a re-analysis of the deposited data

Results flagged for a closer look

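Of 220 values (list sums and named genes) checked for 1 library far from the other 5, 27 were picked out. Chance picks out about 1 in 20 groups, but the 220 include genes named for their wide spread and lists that contain named genes, so the 27 cannot be read against that rate. WT 5 was the distant library for 12 of them. It was low in the glycolysis list (11981.7 summed TPM, others 12797.8 to 12949.6) and the inhibitory neuron list (730.7, others 786.8 to 818.4). It was also low in Aldoc (1146.5 TPM, others from 1373.7), Aldoa (1174.5, others from 1309.2), Cox8a (1027.1, others from 1190.1), Uchl1 (810.4, others from 904.0), Grin1 (147.2, others from 178.4), Ache (141.5, others from 160.9) and Hoxa9 (46.93, others from 56.65). WT 5 was high in Hsp90aa1 (1133.4, others up to 874.5), Llph-ps2 (54.17, others up to 21.71) and Amd2 (2.75, others up to 1.4). WT 5 is the library with 24.63% of its TPM in mitochondrially encoded genes, the highest share, and the part of that share in its low values was not tested.

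WT 6 was high in Hsp90ab1 (1267.7, others up to 1159.9), Tsc22d3 (260.0, others up to 189.3), Hspa1b (19.31, others up to 8.24), Btg3 (13.12, others up to 6.91) and Srd5a2 (3.97, others up to 1.9). WT 1 was high in Fam220a (25.51, others up to 5.39), Igkc (16.98, others up to 1.32) and with it the lymphocyte list (19.21, others up to 4.06), and low in the Arntl arm of the clock (46.97, others from 50.02). WT 4 was low in Glrb (183.2, others from 203.2) and Hprt (151.1, others from 175.9) and high in Avil (0.78, others up to 0.37). WT 3 was high in Lyz2 (16.86, others up to 14.99) and Rarres2 (13.23, others up to 9.89), and WT 2 in Ncmap (5.26, others up to 2.54).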

How the results depend on the processing

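The count of variable genes in the wild type stayed within 1.5 times of 392 under other scaling (401), no filter (466), 10 counts in any library (493, added after the data were seen), the common dispersion (474), title prefix as a covariate (269) and a minimum of 1 TPM (394). Of these calls, 387, 273, 307, 345, 260 and 385 in that order were among the 392. It was 163 with only the 3 libraries of prefix 40412, of which 160 were among the 392, and 133 by DESeq2's dispersion outliers, all of them among the 392. Leaving out each library gave 287 to 334, and 289 to 397 for the 423 of the heterozygous libraries. The share of the 50 highest genes was 19.08% without mitochondrially encoded genes and 18.26% in expected counts. It was 13.53% without mitochondrial genes and 4 others, namely Gm42418 itself and genes that follow it, with Lars2 but not Cdr1 or Rn7sk. The mitochondrial share was 5.81% in expected counts. Leaving out each library moved these shares from 31.46% to 32.66% and from 16.65% to 19.13%, and the genes at 1 TPM or more from 15322 to 15384. 4 of the 6 correlations changed sign: oligodendrocyte with neuron genes (-0.3615 in log2 CPM, -0.01699 from summed TPM), the clock arms (0.7462 without WT 1, and -0.7654 in log2 CPM and -0.4038 from summed TPM with all 6), immediate early with heat shock genes (-0.1449 from summed TPM, -0.409 without WT 6) and mitochondrial with ribosomal protein genes (0.1285 in log2 CPM, 0.3864 without WT 5). The cause was not tested. Leaving out each library gave ranges of 0.285 to 0.811, -0.5601 to 0.7462, -0.409 to 0.4843 and -0.2328 to 0.3864 for these, 0.7845 to 0.9683 for fibroblast with pericyte genes and 0.2929 to 0.4823 for erythroid with neutrophil genes. All 252 list sums without 1 library stayed within 1 SD, but 38 of 42 moved by more as a share of expected counts and 40 of 41 when rescaled without mitochondrially encoded genes. In CPM, 18 of 53 coefficients of variation moved by over 1.5 times. No paired analysis was possible because the labels give no replicate numbers and no groups were compared. In the smallest library 3 counts are 0.1027 CPM, and lower levels cannot be told from 0 there.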

Other observations

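Aminoacyl-tRNA synthetases load amino acids onto tRNAs, and a list of them was added after the data were seen because the series is about one of them. All 20 cytosolic members were measured, with mean TPM from 21.47 (Lars) to 278.5 (Sars), a median of 48.26 and CVs of 2.107% to 9.09%. None was called as variable by edgeR's goodness-of-fit test, against 2.48% of all genes tested. 0 had an unadjusted p below 0.05, against 7.294% of all, and 0 were dispersion outliers in DESeq2. At these shares few calls would fall among 20 genes. The median CV was 6.298%, against 7.395% for genes tested with a mean of at least 10 TPM and 9.16% over all genes tested. Nars stood at 202.8 TPM, Gars at 113.4, Yars at 97.88, Hars at 82.45 and Aars at 78.57. The 17 mitochondrial synthetases were lower, from 3.677 (Wars2) to a median of 12.49, with Yars2 at 17.68. Lars2 was the exception at 516.2 TPM and the only one called, and the next highest, Iars2, had 26.9. The scaffold proteins of the multi-synthetase complex, Aimp1, Aimp2 and Eef1e1, stood at 64.94, 31.64 and 36.5.

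Sex-linked transcripts beyond those given above followed the same split. Kdm5d and Uty, Y-linked demethylase genes, reached 8.18 and 7.55 TPM in WT 6. Xist was 71.86, 77.35, 84.64, 64.79 and 80.55 TPM in WT 1 to WT 5.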
